A study of Mus musculus with 10 samples.

Results

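Maternally methylated imprinting control regions are stretches of DNA that keep methylation on the chromosome inherited from the mother and none on the one inherited from the father. A cell with 1 chromosome of each parent therefore carries about 50% methylation there, and the genes controlled by the region are expressed from a single parental copy. The mark is laid down in the oocyte and is maintained after fertilisation with the help of Zfp57, a zinc finger protein that binds the methylated motif TGCCGC. Its copying at cell division is mainly the work of Dnmt1, whereas Dnmt3b is a de novo methyltransferase, an enzyme that can methylate CpGs that carried no methylation before.

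The rule for the 10 regions described here names positions on the mm9 build of the mouse genome and uses no measured value, although the regions were proposed with earlier results of these data known. They are the control regions of Peg10 (chr6:4695000-4700000), Mest (chr6:30684000-30690000), Peg3 (chr7:6679000-6685000), Snrpn (chr7:67147000-67153000) and Kcnq1ot1 (chr7:150480000-150484000). The other 5 are those of Grb10 (chr11:11924000-11928000), Zrsr1 (chr11:22871000-22875000), Igf2r (chr17:12933000-12937000), Impact (chr18:13129000-13134000) and Nnat (chr2:157384000-157388500). Together they held 312 of the 1378843 CpGs that had 5 or more reads in at least 1 library, out of 864 CpGs listed in them at any depth. Exons, introns and UTRs of these regions were not looked up, because the only annotation to hand is on another build.

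The assay was reduced representation bisulfite sequencing, in which genomic DNA is cut with MspI at CCGG, short fragments are kept and unmethylated cytosines are read as thymine. The 10 libraries came from leukaemic mouse spleen. In the first model, driven by the MLL-AF9 fusion oncoprotein, c-kit+ leukaemic spleen cells gave 3 libraries of Dnmt3b-knockin leukaemia and 3 of WT leukaemia. In the second, driven by cMyc and Bcl2, leukaemic spleen cells gave 2 libraries of Dnmt3b-knockin leukaemia and 2 of WT leukaemia. The knockin is a tetracycline-inducible Dnmt3b allele, per the series text. Its promoter, the doses of any inducer, the alleles carried by WT controls, the age of the animals, any pooling of animals and clonality are not stated in the labels. Whether replicates are different animals is not labelled, and p-values below therefore measure only the spread between these libraries, which may be technical. Methylation data hold no expression markers, so neither the cell type nor the knockin label could be checked. Depth was 14446933 to 46762220 read calls a library, which gave 708033 to 1120681 CpGs at 5 or more reads. The 6 chromosomes that carry the regions had a relative read depth of 0.975 to 1.07 over all libraries.

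MspI fragments placed the measured CpGs in clusters, and in 3 regions a cluster reached into a promoter whose sequence can be shown. Promoter sequences of 300 bases, 250 before and 50 after the start, came from RefSeq on the GRCm38.p6 build. Each was laid on the listed mm9 CpGs by the spacing of its CG pairs alone, since no mm9 genome was used. For 7 promoters, of Mest, Peg3, Usp29, Snrpn, Kcnq1ot1, Zrsr1 and Nnat, all CpGs listed in the window fell on a CG at 1 placement, 4 to 11 CpGs each. The next best placement matched at most 2. Promoters of Grb10, Igf2r and Airn could not be placed, and Peg10 and Impact have no entry. The 3 promoters below are those with measured CpGs inside, written 5′ to 3′ along the gene, and capitals mark each CG with 5 or more reads in a library.
Snrpn promoter, chromosome 7, minus strand: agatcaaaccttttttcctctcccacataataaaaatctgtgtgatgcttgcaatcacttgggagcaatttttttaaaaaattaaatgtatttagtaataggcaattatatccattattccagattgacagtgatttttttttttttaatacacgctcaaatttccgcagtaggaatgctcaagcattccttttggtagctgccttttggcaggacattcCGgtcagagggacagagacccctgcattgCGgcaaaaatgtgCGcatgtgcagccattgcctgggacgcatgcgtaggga
Zrsr1 promoter, chromosome 11, plus strand: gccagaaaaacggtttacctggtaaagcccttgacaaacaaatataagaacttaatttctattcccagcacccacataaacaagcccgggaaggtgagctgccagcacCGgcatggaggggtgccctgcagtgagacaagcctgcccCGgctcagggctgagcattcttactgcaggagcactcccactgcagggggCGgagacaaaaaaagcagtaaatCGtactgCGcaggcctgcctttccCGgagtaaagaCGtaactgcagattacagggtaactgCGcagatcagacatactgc
Nnat promoter, chromosome 2, plus strand: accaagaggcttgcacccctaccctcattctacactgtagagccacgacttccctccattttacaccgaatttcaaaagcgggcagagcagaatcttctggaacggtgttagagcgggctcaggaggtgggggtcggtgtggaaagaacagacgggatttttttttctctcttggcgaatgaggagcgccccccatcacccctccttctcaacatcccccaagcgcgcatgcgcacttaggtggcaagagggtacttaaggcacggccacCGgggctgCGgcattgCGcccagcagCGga
The Zfp57 motif TGCCGC, searched on both strands, occurred once in the Snrpn promoter, once in the Nnat promoter and 2 times in the Mest promoter. It was not found in the windows of Peg3, Usp29, Kcnq1ot1 and Zrsr1, and 11.6% of the 32851 RefSeq promoters hold it. The motif contains a CG, and the 7 placed promoters had a median of 13 CGs against 7 in all RefSeq promoters. The share of 11.6% is therefore not matched for CG number.

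The CG of that motif was itself among the measured CpGs in Snrpn and Nnat. In the Snrpn promoter the motif reads GCGGCA on the strand shown, and the G of its CG is the start base. Methylation of this CG was 37.5% of 32 reads and 40.0% of 20 reads in cMyc-Bcl2 knockin libraries. It was 23.1% of 26 reads and 28.1% of 32 reads in cMyc-Bcl2 WT libraries, so both knockin libraries were higher there, a difference that was not tested. In MLL-AF9 the same CG was methylated in 5 of 11 reads in knockin replicate 2, and in 2 of 6 reads and 5 of 7 reads in WT replicates 2 and 3. Over the 3 measured CpGs of this promoter, cMyc-Bcl2 knockin was at 33.0 and 31.7% and cMyc-Bcl2 WT at 33.3 and 33.2%. Both knockin libraries were thus slightly lower over the promoter, at 20 to 33 reads a CpG in cMyc-Bcl2. These read numbers are too small to order the libraries over the promoter or at the motif's CG. In the Nnat promoter the motif's CG lies 28 bases after the start, and it was methylated in 6 of 7 reads in cMyc-Bcl2 knockin replicate 1. In cMyc-Bcl2 WT it was methylated in 16 of 25 reads in replicate 1 and in 8 of 8 reads in replicate 2, and the read numbers are too small to order these libraries. Over the 6 to 8 promoter CpGs of Zrsr1, levels were 52.1, 39.9 and 40.3% in MLL-AF9 knockin and 23.3, 32.6 and 50.7% in MLL-AF9 WT. They were 43.9 and 44.3% in cMyc-Bcl2 knockin and 41.8 and 33.4% in cMyc-Bcl2 WT. The libraries of both genotypes overlapped in MLL-AF9, while both knockin libraries lay above both WT libraries in cMyc-Bcl2. Of all 1-kb windows of the series, 24.4% showed this separation in cMyc-Bcl2 and 18.0% the reverse. On the 63 CpGs of the whole Zrsr1 region shared in cMyc-Bcl2 the order was the reverse, with means of 38.1% in knockin and 39.0% in WT.

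Intermediate methylation was more frequent in the regions than around them. Of the 312 measured CpGs in the regions, 263 (84.3%) had a median level over libraries of 20 to 80%, against 89 of 353 (25.2%) in the 20 kb on either side and 12.8% of all CpGs of the series. In Mest, Peg3 and Igf2r every measured CpG of the region was in that range. Flanks differed by region: those of Peg3 and Kcnq1ot1 held 6 and 2 CpGs, all over 80%, and those of Impact held 13 under 20% and 13 over 80%. Intermediate CpGs made up over 50% of the flank in Igf2r, with 4 of 7, and in Grb10, with 72 of 131. Of 10 windows of 1 kb in the regions that were covered in all libraries, 3 stayed at 30 to 70% in every library, against 113 of 42952 windows of the series (0.263%). Grb10 and Zrsr1 held 2 of these 10 windows each, Peg10 and Snrpn held none, and each other region held 1.

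**Figure D1:**
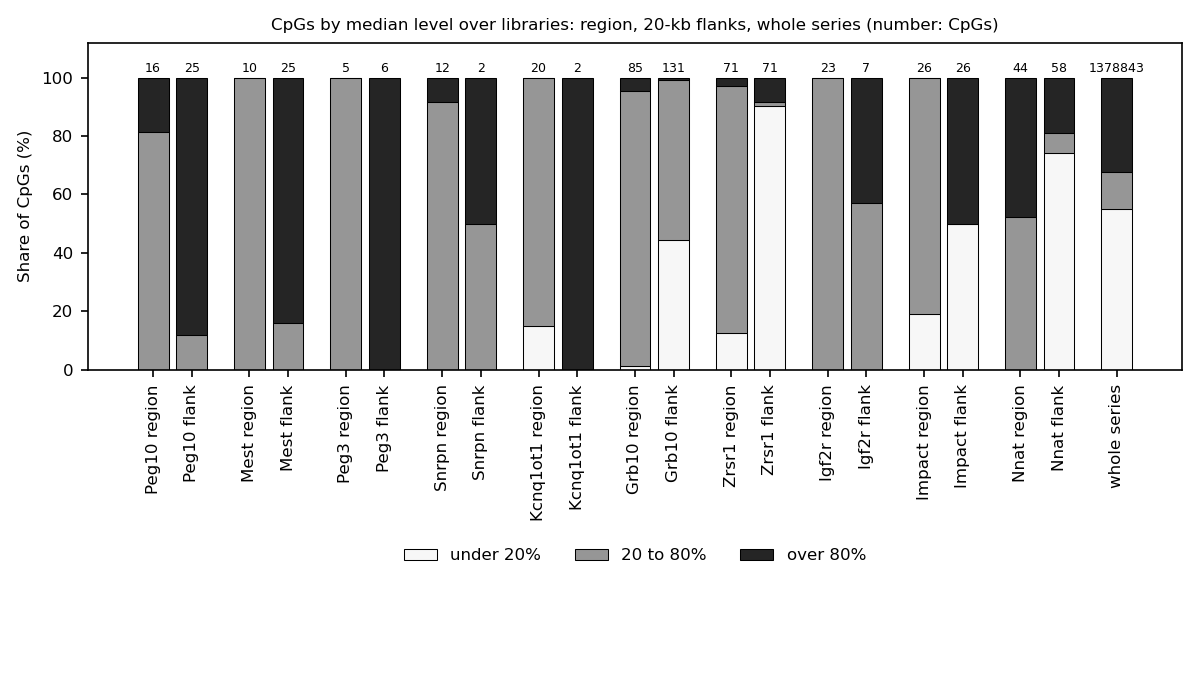
Share of CpGs (vertical axis, %) whose median level over libraries was under 20%, 20 to 80% or over 80%, in each region, in the 20 kb on either side and in the whole series, with the number of CpGs above each bar. The grey class fills 52.3 to 100% of each region and 12.8% of the whole series.

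Levels below are means over the CpGs with 5 or more reads in each library, every CpG weighted once, with both strands of a CpG joined. Of 98 pairs of a region and a library with such CpGs, 75 were at 30 to 70%, and 65 were below 50%. Neighbouring CpGs are read by the same reads, so intervals were taken with each stack of reads counted once, which left 8 to 1179 reads per pair. The exact 95% Clopper-Pearson interval lay below 50% in 36 pairs, held 50% in 46 and lay above it in 16. These intervals cover counting error only. They surround the level of the reads counted once, which can differ from the mean over CpGs. For Grb10 in MLL-AF9 knockin replicate 2 the mean over CpGs was 49.0%. The reads counted once gave 62.4% there (interval 55.0 to 69.3%).

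Kcnq1ot1 and Igf2r are controlled by regions that hold the promoter of a long noncoding RNA, Kcnq1ot1 itself and Airn, each of which silences neighbouring genes on the paternal chromosome. The Kcnq1ot1 region was at 47.6, 37.3 and 37.5% in MLL-AF9 knockin libraries and at 42.2, 39.0 and 48.6% in MLL-AF9 WT libraries. It was at 34.4 and 18.6% in cMyc-Bcl2 knockin and 27.0 and 32.9% in cMyc-Bcl2 WT. All 10 libraries were below 50%, and the lowest on own CpGs was cMyc-Bcl2 knockin replicate 2. On the 6 CpGs shared by all 10 libraries it was at 31.1%, and MLL-AF9 knockin replicate 2 was the lowest, at 29.3%. The Igf2r region was at 31.2, 24.1 and 24.7% in MLL-AF9 knockin and 29.3, 46.2 and 53.3% in MLL-AF9 WT. It was at 42.6 and 40.3% in cMyc-Bcl2 knockin and 47.7 and 38.8% in cMyc-Bcl2 WT. In both models the genotypes overlapped over the region, and the MLL-AF9 libraries rest on 8 to 49 reads counted once. In cMyc-Bcl2 its 2 stretches lay on opposite sides of WT. The 9 CpGs at 1456 to 1615 bp were at 53.3 to 56.3% in knockin and 36.5 to 45.4% in WT. The 14 CpGs at 2102 to 2286 bp were at 24.3 to 31.8% in knockin and 41.2 to 49.3% in WT. CpGs of a stretch, here and below, are counted if measured in any library. The 4 cMyc-Bcl2 libraries shared 9 CpGs of the second stretch. With reads summed over these, knockin was at 29.8 and 23.4% and WT at 45.7 and 38.5%. Of all 1-kb windows, 24.4% were higher and 18.0% lower in cMyc-Bcl2 knockin without overlap.

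Peg10, Peg3 and Mest are expressed from the paternal copy and are best known from placenta and growth. Peg10 derives from a retrotransposon, Peg3 encodes a zinc finger protein and Mest a protein of the hydrolase fold family. Peg10 had CpGs with 5 reads in 8 libraries, at 48.3 and 82.3% in MLL-AF9 knockin replicates 2 and 3 and at 45.8 and 28.1% in MLL-AF9 WT replicates 2 and 3. The value of 82.3% came from 4 CpGs and 11 reads counted once (interval 48.2 to 97.7%). In cMyc-Bcl2 the 12 measured CpGs were at 44.3 and 34.1% in knockin and 46.3 and 50.4% in WT, with no overlap. Peg3 was at 54.5, 46.6 and 43.1% in MLL-AF9 knockin and 62.1, 63.7 and 44.7% in MLL-AF9 WT. In cMyc-Bcl2 it was at 82.2 and 60.2% in knockin and 63.1 and 36.1% in WT. Replicate 1 of cMyc-Bcl2 knockin was the highest of the 10 and the only one whose interval for Peg3, 69.3 to 86.9%, lay above 50%. Mest was at 56.8, 48.6 and 41.2% in MLL-AF9 knockin and 39.4, 52.4 and 39.2% in MLL-AF9 WT, and at 41.0 and 28.4% in cMyc-Bcl2 knockin and 51.7 and 34.0% in cMyc-Bcl2 WT. Its genotypes overlapped in both models.

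Snrpn encodes a spliceosomal protein and lies in the cluster linked in human to Prader-Willi and Angelman syndromes, and Zrsr1 encodes a protein related to a splicing factor subunit. Snrpn was at 44.0, 46.1 and 46.1% in MLL-AF9 knockin and 54.9, 53.8 and 59.0% in MLL-AF9 WT. On each library's own CpGs the MLL-AF9 knockin libraries were all below the WT libraries, but on the 3 CpGs that these 6 libraries share the genotypes overlapped. In cMyc-Bcl2, Snrpn was at 57.9 and 33.9% in knockin and 49.1 and 33.2% in WT. Zrsr1 was at 45.6, 31.4 and 42.5% in MLL-AF9 knockin and 33.9, 35.4 and 26.1% in MLL-AF9 WT. In cMyc-Bcl2 it was at 38.3 and 35.1% in knockin and 37.0 and 38.8% in WT. It held 2 unlike stretches: 63 CpGs 863 to 2168 bp from the start of the region averaged 41.6% in MLL-AF9 knockin and 33.4% in MLL-AF9 WT, while 8 CpGs 2934 to 3252 bp from it averaged 4.50% and 2.46% in these groups.

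Grb10 encodes an adaptor protein that restrains insulin and growth factor signalling. Its region had the most measured CpGs, 53 to 80 a library. It was at 57.5, 49.0 and 53.7% in MLL-AF9 knockin and 58.6, 66.6 and 63.4% in MLL-AF9 WT. In cMyc-Bcl2 it was at 67.9 and 59.4% in knockin and 51.3 and 44.0% in WT. On each library's own CpGs the genotypes were apart in both models, with MLL-AF9 knockin below its WT and cMyc-Bcl2 knockin above its WT. Separation in these directions was seen in 1.41% of all 1-kb windows in MLL-AF9 and 24.4% in cMyc-Bcl2. With each stack of reads counted once, the MLL-AF9 genotypes overlapped, at 56.2 to 67.1% in knockin and 58.1 to 66.4% in WT. The cMyc-Bcl2 genotypes stayed apart there, at 59.9 to 74.8% in knockin and 39.1 to 49.6% in WT.

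Impact encodes a regulator of translation that inhibits the kinase Gcn2. Its region was at 43.4, 36.7 and 35.8% in MLL-AF9 knockin and 27.5, 28.3 and 33.9% in MLL-AF9 WT. All knockin libraries lay above WT on each library's own CpGs, but on the 7 CpGs shared by the 6 libraries knockin averaged 35.7% ± 1.71 and WT 39.9% ± 9.60 (SD, n = 3 each), with overlap. The region was at 48.3 and 0.55% in cMyc-Bcl2 knockin and at 25.6 and 26.5% in cMyc-Bcl2 WT. The 2 knockin libraries thus lay on either side of both WT libraries. In replicate 2 of cMyc-Bcl2 knockin, 24 of 25 measured CpGs were under 5%, and 2 of 188 reads counted once were methylated (1.06%, interval 0.129 to 3.79%). No other pair of a region and a library was under 10%. In 21206 of the 42952 windows at least 9 libraries were at 20% or more. Among these, the Impact window was the only 1 under 5% in that library with the other 9 at 20% or more. The lowest of the other 9 was MLL-AF9 WT replicate 1 at 20.8%, and 38 windows met this rule over all 10 libraries. The rule has the shape of the Impact values, so the count describes the window and tests nothing. In cMyc-Bcl2 knockin replicate 2 the flanks of Impact were unlike the region, with 7 CpGs under 20% and 4 over 80%. Chromosome 18 had a relative depth of 1.05 in that library.

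Nnat, which encodes a small membrane protein of neurons, lies in a region that was high in most libraries. It was at 79.1, 89.3 and 84.6% in MLL-AF9 knockin and 78.5, 86.5 and 92.9% in MLL-AF9 WT. It was at 73.2 and 89.7% in cMyc-Bcl2 knockin and 41.5 and 62.6% in cMyc-Bcl2 WT. All MLL-AF9 libraries were high whatever their genotype, and in cMyc-Bcl2 both knockin libraries were above both WT libraries. The level depended on the stretch read: the 23 CpGs 1834 to 2213 bp from the start of the region were at 67.3 to 94.4% in cMyc-Bcl2 knockin and 37.8 to 57.7% in cMyc-Bcl2 WT. The 14 CpGs at 3180 to 3594 bp were at 85.5 to 95.5% in cMyc-Bcl2 knockin and 51.4 to 81.2% in cMyc-Bcl2 WT. These ranges, on each library's own CpGs, again did not overlap. On the 6 CpGs there that all cMyc-Bcl2 libraries share, with reads summed, the genotypes overlapped. WT replicate 2 was at 87.1%, between knockin replicate 1 at 85.3% and knockin replicate 2. WT replicate 1 was at 38.5%, below both knockin libraries. The 2 CpGs at 15 to 39 bp overlapped, at 12.5 to 40.0% in cMyc-Bcl2 knockin and 19.5 to 25.6% in cMyc-Bcl2 WT, and the 5 CpGs at 1310 to 1345 bp were read in cMyc-Bcl2 knockin, at 90.3 to 92.3%, but with fewer than 5 reads in cMyc-Bcl2 WT.

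**Figure D2:**
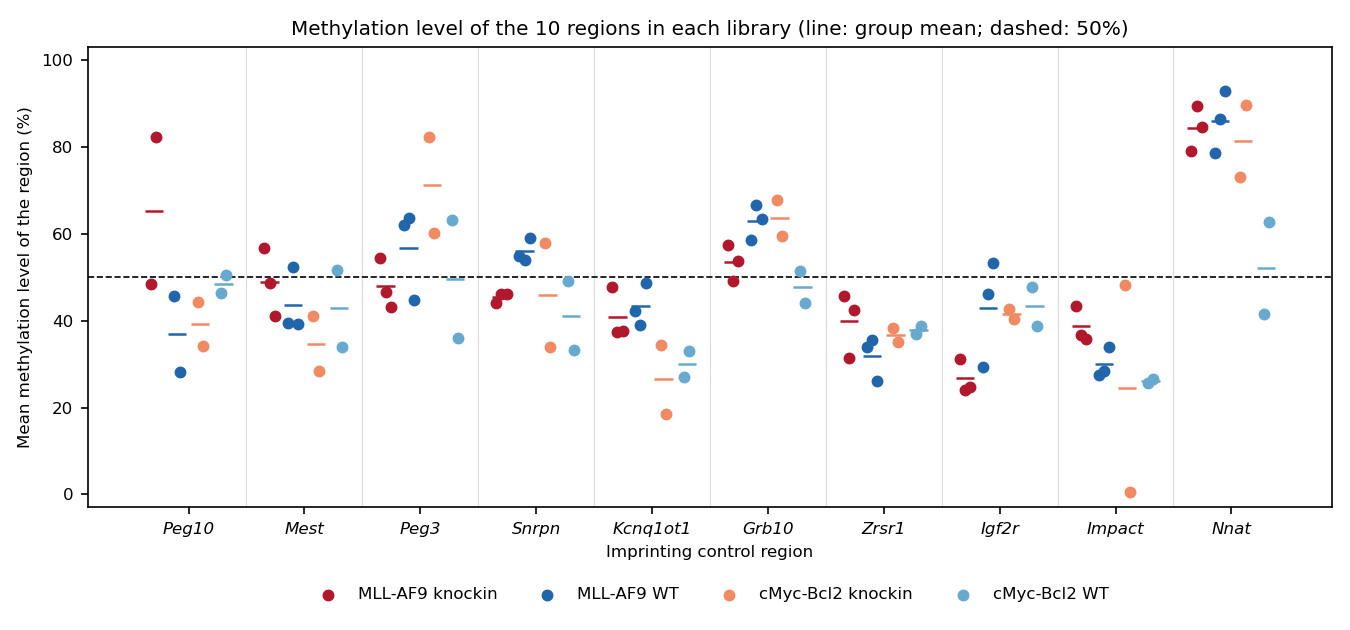
Mean methylation level (vertical axis, %) of each region, one point per library and a short line for the group mean, in MLL-AF9 knockin, MLL-AF9 WT, cMyc-Bcl2 knockin and cMyc-Bcl2 WT, with 50% dashed. Nnat lies high in all groups but cMyc-Bcl2 WT, and 1 point of Impact in cMyc-Bcl2 knockin lies at 0.55%.

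By group, the median of the 10 region means was 46.7% in MLL-AF9 knockin, 43.5% in MLL-AF9 WT, 40.3% in cMyc-Bcl2 knockin and 43.1% in cMyc-Bcl2 WT. The number of regions below 50% was 7, 6, 7 and 9 in these groups. Each region was then compared with 50% over all 10 libraries on the CpGs measured in all of them, with an exact two-sided sign-flip permutation test, for 8 regions with at least 3 such CpGs. Snrpn, with 2 shared CpGs, and Peg10, with 0, were not tested. Kcnq1ot1 averaged 38.6% ± 6.93 (SD, n = 10) and Impact 33.9% ± 12.7 (SD, n = 10), both below 50% in 10 of 10 libraries, with an exact p of 0.00195 each, the smallest that 10 libraries can give. Zrsr1 averaged 42.2% ± 6.24 (SD, n = 10; 9 of 10 below, exact p = 0.00586) and Igf2r 34.6% ± 11.9 (SD, n = 10; 8 of 10 below, exact p = 0.0117). Nnat averaged 74.8% ± 17.3 (SD, n = 10; 9 of 10 above, exact p = 0.00586) and Grb10 58.1% ± 9.76 (SD, n = 10; 8 of 10 above, exact p = 0.0352). Mest at 44.5% ± 7.93 (exact p = 0.0605, n = 10) and Peg3 at 55.6% ± 13.5 (exact p = 0.223, n = 10) missed a p of 0.05. Mest passed 0.05 on each library's own CpGs (-6.73 points, exact p = 0.0449), with strands not joined (exact p = 0.0488), with 1 position per stack of reads (exact p = 0.0234) and without MLL-AF9 knockin replicate 1 or cMyc-Bcl2 WT replicate 1 (exact p = 0.0195 each). Peg3 was -0.98 points from 50% with 1 position per stack. The Nnat value was 14.3 points above 50% without the outer 1000 bp of the region (exact p = 0.113). It was the same, with the same exact p, on CpGs that averaged 20 to 80% over the WT libraries of both models. Those WT libraries are among the 10 compared with 50%, so this choice itself limits the distance from 50%. Grb10 missed 0.05 on those intermediate CpGs (6.99 points, exact p = 0.0566). It also missed it without MLL-AF9 knockin replicate 1, MLL-AF9 WT replicate 2 or 3, or cMyc-Bcl2 knockin replicate 1 or 2, with 5.36 to 8.21 points and an exact p of 0.0508 to 0.117. The 10 libraries mix 4 groups, and for Nnat the group means on these CpGs were 83.3, 80.8, 80.7 and 47.2% in MLL-AF9 knockin, MLL-AF9 WT, cMyc-Bcl2 knockin and cMyc-Bcl2 WT.

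In MLL-AF9, knockin was lower than WT in 6 of the 9 regions compared and higher in 3, with a median difference of -7.74 points on the CpGs shared by the 6 libraries. Grb10 was at 54.3% ± 2.34 in knockin and 65.7% ± 2.88 in WT (SD, n = 3 each; 48 CpGs), a difference of -11.4 points. It was the only 1 of the 9 regions without overlap, a separation that 1.41% of all 1-kb windows showed in this direction and 18.9% with knockin higher, and its exact permutation p of 0.1 is the smallest that 3 against 3 libraries allow. Snrpn was at 46.6% ± 2.89 in knockin and 57.3% ± 9.17 in WT, and Igf2r at 27.4% ± 5.78 in knockin and 37.3% ± 17.0 in WT (SD, n = 3 each), both with overlap. Mest, Zrsr1 and Nnat were higher in knockin by 5.12, 5.45 and 2.11 points, also with overlap. Nnat changed sign or came to 0 in 6 of 14 alternatives (-4.52 points without knockin replicate 2), Zrsr1 changed sign at 20 reads (-2.59 points), and Mest was 0.66 points higher without knockin replicate 1. Igf2r was 0.73 points higher in knockin without WT replicate 3. With each stack of reads counted once the Grb10 difference was 0.38 points, and without MLL-AF9 WT replicate 3 the median over the 9 regions was 0.18 points.

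Over all 42952 windows of 1 kb in MLL-AF9, 75.9% were higher in knockin, with a median difference of 1.13 points. Of 7063 windows that averaged 20 to 80% in WT of the other model, 83.3% were higher in knockin, with a median difference of 8.47 points. Of the 10 windows in the control regions 5 were higher in knockin, with a median of -3.16 points. In a quasi-binomial fit of all these windows, with moderated dispersion, windows were called where the groups lay 10 points or more apart and the Benjamini-Hochberg adjusted p was under 0.05. The largest differences among the 10 were -13.6 points in a Grb10 window (adjusted p = 0.684) and 13.5 points in a Zrsr1 window (adjusted p = 0.672). In MLL-AF9 0 of the 10 windows in the regions and 0.00233% of all windows were called for knockin minus WT. The count at an unadjusted p under 0.05 was 1 of 10, and limma on M-values called 0 of 10, also with 0 of 10 at an unadjusted p under 0.05.

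In cMyc-Bcl2, knockin was lower than WT in 6 of 10 regions and higher in 4, with a median difference of -0.80 points. Nnat was at 74.6% ± 21.2 in knockin and 38.2% ± 16.2 in WT (SD, n = 2 each; 21 CpGs), a difference of 36.4 points, and was higher at 20 of 21 CpGs. The difference was 18.2 points without knockin replicate 2 and 51.3 points without knockin replicate 1. Grb10 was at 64.8% ± 5.63 in knockin and 46.6% ± 5.43 in WT (SD, n = 2 each; 68 CpGs), a difference of 18.2 points, and was higher at 52 of 68 CpGs. Peg3 was at 71.2% ± 15.6 in knockin and 49.6% ± 19.1 in WT, 21.6 points higher with overlap. This was 8.03 points without WT replicate 2, 10.6 points without knockin replicate 1, 32.6 points without knockin replicate 2 and 35.1 points without WT replicate 1. Peg10 was at 39.2% ± 7.23 in knockin and 48.4% ± 2.90 in WT, and Zrsr1 at 38.1% ± 0.31 in knockin and 39.0% ± 0.58 in WT (SD, n = 2 each). Peg10 was 0.40 points higher in knockin at 20 reads, and Zrsr1 was higher at 10 reads (1.17 points), on intermediate CpGs (0.74 points) and with strands not joined (0.81 points). Nnat and Grb10 were higher and Peg10 and Zrsr1 lower without overlap. Of all 1-kb windows, 24.4% were higher and 18.0% lower without overlap, against 4 and 1 of the 10 windows in the regions. For windows at 20 to 80% in WT of the other model, these shares were 38.3% and 9.6%. Windows and region means are unlike units, so the counts of regions have no matched share. With 2 against 2 libraries an exact permutation test cannot go below 0.333. For Impact the mean of knockin, 24.4% ± 33.7, and that of WT, 25.9% ± 0.75 (SD, n = 2 each), were 1.53 points apart, and the knockin mean stands for no library. Without cMyc-Bcl2 knockin replicate 2 the difference for Impact was 22.3 points and without replicate 1 it was -25.4 points.

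**Figure D3:**
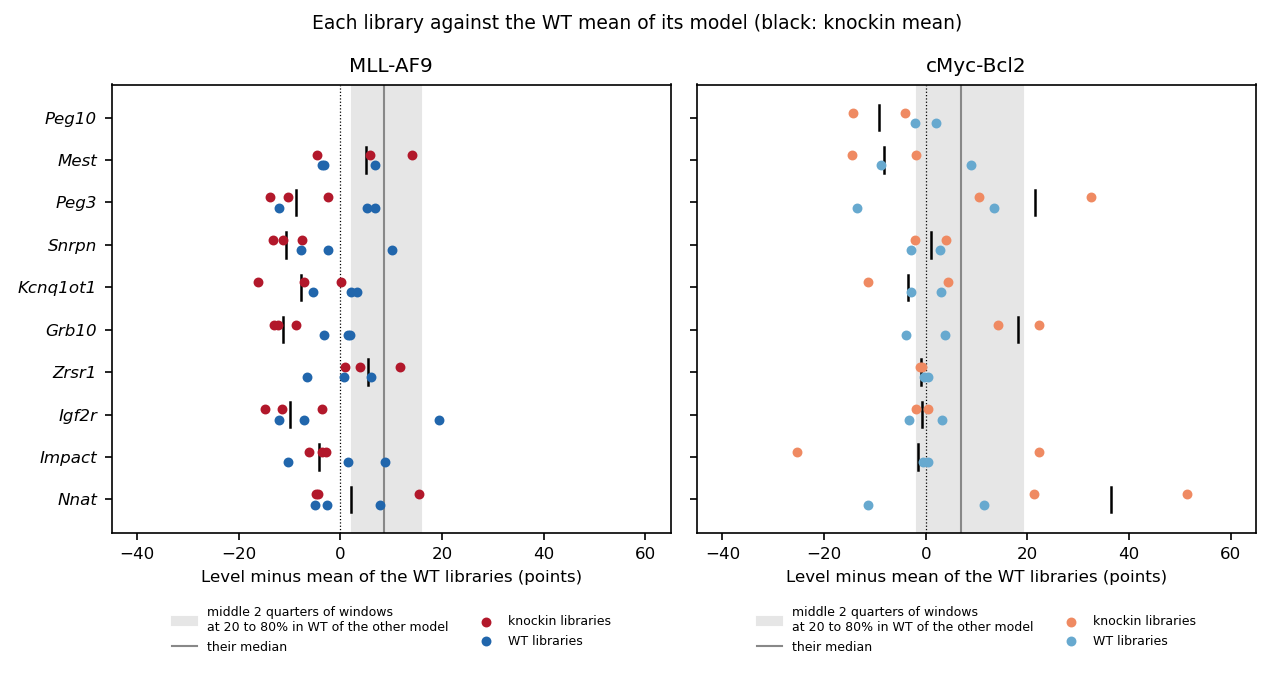
Level of each library minus the mean of the WT libraries of its model (horizontal axis, points) on the CpGs shared in a model, for knockin (upper points) and WT libraries (lower points), with the knockin mean in black. The grey band runs between the lower and upper quartile of all windows at 20 to 80% in WT of the other model, whose median in MLL-AF9 was 8.47 points and in cMyc-Bcl2 6.92 points.

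In the fit over all windows, 1 of the 10 windows in the regions was called for knockin minus WT in cMyc-Bcl2, as higher, against 5.58% of all windows called higher and 0.496% called lower. It lies in the Grb10 region at chr11:11926001-11927000 and holds 44 CpGs. This window was at 68.5 and 63.6% in knockin and 47.0 and 43.4% in WT, which is 20.9 points higher in knockin (adjusted p = 0.00294). In MLL-AF9 the same window was at 54.5, 54.6 and 55.2% in knockin and 57.3, 67.5 and 66.5% in WT, a difference of -9.01 points (adjusted p = 0.307). The other Grb10 window, from chr11:11925001, held 4 CpGs. It was at 75.5 and 44.0% in cMyc-Bcl2 knockin and 58.8 and 32.9% in cMyc-Bcl2 WT, with overlap. With the 2 cMyc-Bcl2 groups fitted apart, on 14 CpGs, it was 5.92 points higher in knockin (adjusted p = 0.795). The Peg3 window, 28.8 points higher (adjusted p = 0.0642), and the Nnat window, 49.2 points higher (adjusted p = 0.0787), were not called in cMyc-Bcl2, nor was the Igf2r window, at -18.6 points the lowest (adjusted p = 0.114). The Grb10 call was lost in limma on M-values (adjusted p = 0.408), with the 2 cMyc-Bcl2 groups fitted apart (adjusted p = 0.0869) and at a minimum of 10 reads (9.35 points, adjusted p = 0.214). It was also lost without cMyc-Bcl2 WT replicate 2 (19.0 points, adjusted p = 0.0919), where called windows over the whole series numbered 169 instead of 2609. The median difference of the 10 windows was 1.71 points, against 6.92 points in 7166 windows that averaged 20 to 80% in WT of the other model and 0.084 points in all 42952 windows.

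**Figure D4:**
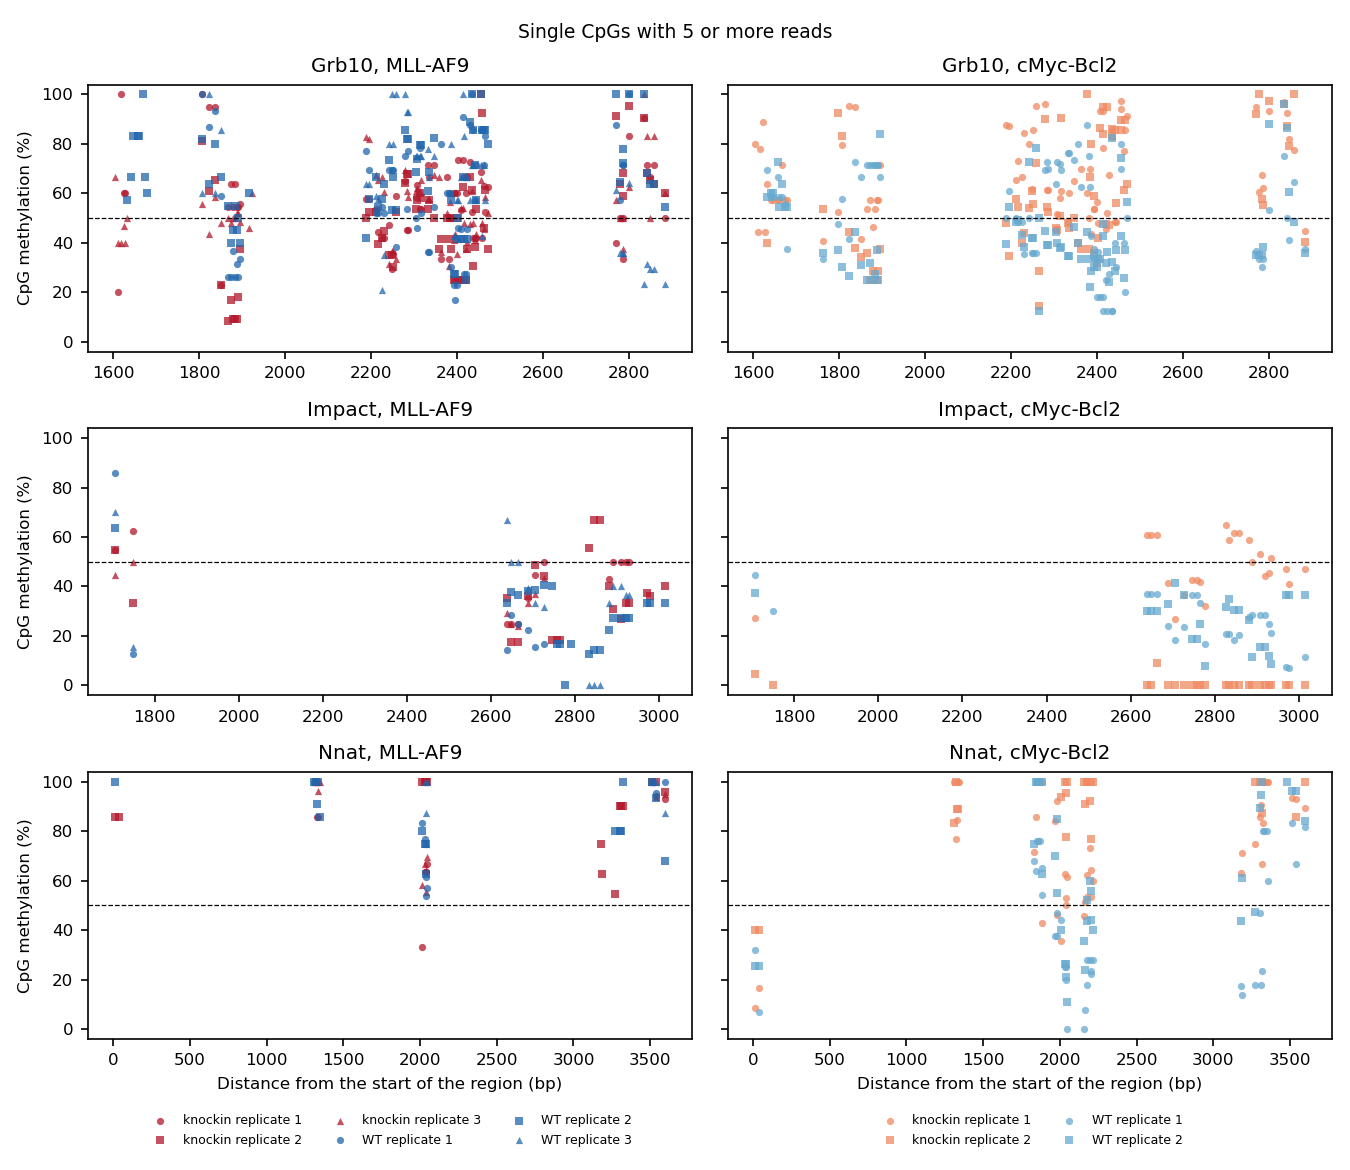
Methylation of single CpGs with 5 or more reads (vertical axis, %) against the distance from the start of the region (horizontal axis, bp) for Grb10, Impact and Nnat, with MLL-AF9 on the left, cMyc-Bcl2 on the right and one symbol per library. In Impact the squares of cMyc-Bcl2 knockin replicate 2 lie at the bottom, with 24 of 25 CpGs under 5%.

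The Grb10 differences between knockin and WT had opposite signs in the 2 models. The difference of the effects in the called window was -29.9 points (adjusted p = 0.0649), and 0 of the 10 windows were called for this interaction, against 0.0% of all windows. Over all windows 2902 higher and 1909 lower differences had an unadjusted p under 0.05. The lowest of the 10 was Nnat at -48.1 points (adjusted p = 0.423) and the highest Mest at 16.9 points (adjusted p = 0.747). At an unadjusted p under 0.05 there were 3 of 10 by the quasi-binomial fit and 2 of 10 by limma, which called 0. Over both models together Nnat was highest at 25.2 points (adjusted p = 0.2) and Igf2r lowest at -14.3 points (adjusted p = 0.101), and 0 of 10 windows were called for knockin minus WT, against 5.17% of all windows. There were 3 of 10 at an unadjusted p under 0.05, and 1 of 10 by limma, which called 0. On region means the median difference over both models was 0.70 points, with 4 of 8 regions higher. Igf2r, at -14.2 points, had the smallest exact permutation p of the 8, 0.1 with 10 libraries. Without MLL-AF9 WT replicate 3 it was -7.55 points (exact permutation p = 0.183), and without MLL-AF9 WT replicate 1 it was -17.2 points (exact permutation p = 0.0333).

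The MLL-AF9 cells were c-kit+ and the cMyc-Bcl2 cells are not labelled so, and the oncogene and this selection cannot be told apart. Between the leukaemia models the Grb10 window of 44 CpGs was the only 1 of 10 called, in opposite directions by genotype. In knockin it was 11.3 points higher in cMyc-Bcl2 than in MLL-AF9 (adjusted p = 0.0179), where 4.77% of all windows were called higher. In WT it was 18.6 points lower in cMyc-Bcl2 than in MLL-AF9 (adjusted p = 0.0148), where 0.915% of all windows were called lower. Both calls were lost in limma on M-values (adjusted p = 0.493 in knockin and 0.401 in WT) and at 10 reads (adjusted p = 0.774 in knockin and 0.196 in WT). The call in knockin was lost without MLL-AF9 knockin replicate 2 (adjusted p = 0.0517), MLL-AF9 knockin replicate 3 (adjusted p = 0.0814) or cMyc-Bcl2 knockin replicate 1 (adjusted p = 0.0688). The call in WT was lost without MLL-AF9 WT replicate 2 (adjusted p = 0.0882), MLL-AF9 WT replicate 3 (adjusted p = 0.0564) or cMyc-Bcl2 WT replicate 2 (adjusted p = 0.133), and with the 2 groups fitted apart (adjusted p = 0.0717). Not called were Nnat at -50.2 points (adjusted p = 0.269) and Zrsr1 at 11.0 points (adjusted p = 0.371) in WT, and Peg3 at 29.8 points (adjusted p = 0.0687) and Impact at -12.0 points (adjusted p = 0.78) in knockin. On region means, cMyc-Bcl2 was lower than MLL-AF9 in 5 of 8 regions, with a median of -3.29 points over both genotypes. Nnat had the lowest exact permutation p, 0.07 over 10 libraries, with a mean of 64.0% in cMyc-Bcl2 and 82.0% in MLL-AF9. The difference over both genotypes, -18.1 points, was -1.69 points with strands not joined, where too few CpGs were left for a test, and -24.5 points (exact permutation p = 0.04) with 1 position per stack. Kcnq1ot1 was at -7.25 points (exact permutation p = 0.09, 10 libraries). It was at -13.8 points on each library's own CpGs and -13.2 points with 1 position per stack (exact permutation p = 0.01 each). Both of these settings let the CpGs differ between models. Own CpGs numbered 17 in each cMyc-Bcl2 library and 6 to 18 in MLL-AF9 libraries. Without MLL-AF9 knockin replicate 2 the Kcnq1ot1 difference was -9.35 points (exact permutation p = 0.0333). Within genotypes the Nnat difference was -2.60 points in knockin and -33.5 points in WT.

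The strands of a CpG are listed apart in the deposited files, which gave a check within libraries. Forward and reverse strands were both measured in 94 pairs of a region and a library, with a median absolute gap of 9.87 points. The forward strand was higher in 46 of the 94, and the gap was over 20 points in 24. In Igf2r the reverse strand was higher in 7 of 9 libraries, with a median gap of -16.7 points, and in Nnat the forward strand was higher in 8 of 10, with a median gap of 8.45 points. The strands are read by different fragments and need not cover the same CpGs.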

How the data were processed

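Genomic DNA of 10 leukaemic spleen samples was profiled by reduced representation bisulfite sequencing. The submitters' processing notes name Bismark 0.7.4, methylKit, Trim Galore 0.2.2, CASAVA and the mm9 build, without their settings. The deposited files hold, for each position, a pair of whole-number read counts, taken as methylated and unmethylated because mitochondrial CpGs then read as methylated in 0.910 to 3.20% of calls. Each chromosome is listed as 2 ascending runs, 1 per strand, so the strands of a CpG were joined here.

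CpGs entered with 5 or more reads in the libraries compared. Region means weighted each CpG once and were tested by exact two-sided permutation of libraries (within a model or genotype where both entered), with at least 3 CpGs. Autosomal 1000-bp windows with 3 or more CpGs at 5 reads in all 10 libraries were fitted in 4 groups with a quasi-binomial logistic model. Moderation of the dispersion used limma 3.58.1 (R 4.3.3), with values held at 1 or above and shared by all groups, followed by an F-test. CpGs on 1 read are counted separately there. In simulated data with extra spread between libraries, the cMyc-Bcl2 contrast called more unchanged windows than its threshold allows. Python 3.11.15, numpy 2.4.6, pandas 2.3.3 and scipy 1.17.1 were used for the rest.

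The members, the lists and the comparisons were chosen with earlier results of these data known. All 10 regions are named, as are called windows and the highest and lowest window of each contrast. Libraries within a group correlated at 0.966 to 0.985 across windows, and none was counted as a copy of another. Alternatives were stricter read minimums, other window sizes, limma on M-values, separate fits, other weightings of CpGs and leaving out each library. Replicates were numbered in accession order and pair no samples.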

Additional observations from a re-analysis of the deposited data

Results flagged for a closer look

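In 3 regions the knockin effect on region means had opposite signs in the 2 models, with each knockin library below the WT mean in one model and above it in the other. For Peg3 the effect in MLL-AF9 minus that in cMyc-Bcl2 was -30.4 points, since MLL-AF9 had -8.80 points and cMyc-Bcl2 21.6 points. For Grb10 it was -29.6 points, since MLL-AF9 had -11.4 points and cMyc-Bcl2 18.2 points. For Zrsr1 it was 6.37 points, since MLL-AF9 had 5.45 points and cMyc-Bcl2 -0.92 points. The opposite signs of Zrsr1 did not hold under other settings: the cMyc-Bcl2 value was 1.17 points at 10 reads, 0.74 points on CpGs at 20 to 80% in WT of the other model and 0.81 points with strands not joined, and the MLL-AF9 value was -2.59 points at 20 reads. For Peg3 the cMyc-Bcl2 value ranged from 8.03 to 35.1 points with 1 library left out. With each stack of reads counted once, the Grb10 difference in MLL-AF9 was 0.38 points. The difference between models was not tested on region means. In the quasi-binomial fit of windows the interaction had an adjusted p of 0.312 for Peg3, 0.0649 and 0.561 for the 2 Grb10 windows and 0.883 and 0.797 for the 2 Zrsr1 windows.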

How the results depend on the processing

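Of 360 values of single regions under other settings, 327 kept their direction and side of the threshold, 24 changed sign or came to 0 where no test had passed, 3 lost and 6 gained a p under 0.05, and 0 reversed a call; with 1 library left out these were 306, 19, 5 and 4 of 334. The median knockin minus WT difference in MLL-AF9, -7.74 points, was -2.45 points on each library's own CpGs, -1.28 points with 1 position per read stack (chosen after seeing the data) and -9.40 to 0.18 points with 1 library left out. In cMyc-Bcl2 the median of -0.80 points ranged from -2.31 to 4.25 points with 1 library left out, the highest without knockin replicate 2. Knockin minus WT in cMyc-Bcl2 called 1 member window, but 0 in limma on M-values, 0 at 10 reads, 0 with the 2 groups fitted apart, 2 in 500-bp windows and 0 to 3 with 1 library left out. Over both models it called 0, and 1 with no minimum difference. The interaction called 0, and 0 to 1 with 1 library left out. For cMyc-Bcl2 minus MLL-AF9 in WT the count of 1 was 0 in limma, 0 at 10 reads, 0 with the groups fitted apart and 0 to 1 with 1 library left out. In knockin the count of 1 was 0 in limma, 0 at 10 reads, 0 in 500-bp windows, 2 with at least 1 CpG in a window and 0 to 2 with 1 library left out. The cause was not tested. Over all windows knockin minus WT in cMyc-Bcl2 called 2609 windows, 0 in limma and 1 with the groups fitted apart. Over both models it called 2220 and 223 in limma, in WT 1040, 704 in limma and 96 apart, and in knockin 3337 and 1204 in limma. No paired analysis was possible because replicates carry only a number given in accession order. Depth limits the MLL-AF9 values of Peg10 and Igf2r most, with 8 to 49 reads counted once.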
